A study of Mus musculus with 8 samples.

Results

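The 31 genes described here encode enzymes of cholesterol and fatty acid synthesis, the sterol sensors that control them and the carriers that move cholesterol inside the cell. They are a named list of pathway genes set by role, which was drawn up with earlier results of these data known, and all 31 were found among the 50615 genes of the count table. RNA had been sequenced from bone marrow-derived macrophages (BMDMs), which are cells grown from mouse marrow with M-CSF, here at 20 ng/ml for 6 days. All mice were C57BL/6 and carried Ncoa6 fl/fl alleles, in which loxP sites flank an exon of Ncoa6. The Ncoa6-sufficient mice carried these alleles alone, and the Ncoa6-KO mice also carried LysM CRE, a Cre recombinase expressed from the Lyz2 locus of myeloid cells. Cells of each genotype were left in medium or given LPS, a bacterial endotoxin, for 4 h (100 ng/ml) and then monosodium urate (MSU) crystals for 2 h (200 µg/ml). There were 4 groups with 2 libraries each, made from different mice within a group, and the sources used here do not say whether a mouse gave cells to both conditions. The age and sex of the mice were not given in the sources used here. The comparisons ask how these genes respond to LPS+MSU, and whether their levels or their response differ without Ncoa6, a nuclear coactivator of transcription factors.

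Cholesterol is built from acetyl-CoA through mevalonate and a chain of isoprenoids to squalene, which is closed into lanosterol and then trimmed and reduced to cholesterol. When sterols in the endoplasmic reticulum are low, Scap carries the transcription factors Srebf1 and Srebf2 to the Golgi, where they are cut and released to switch on the genes of these steps, and when sterols are high Insig proteins hold Scap back. Fatty acids are made from the same acetyl-CoA by Acly, Acaca and Fasn and desaturated by Scd enzymes, and macrophages alter both pathways when they sense bacteria.

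The libraries held 25281955 to 33673552 expected counts each. Ncoa6 itself was at 1515 and 1405 normalized counts in the Ncoa6-sufficient libraries in medium and at 784 and 622 in the Ncoa6-KO libraries, where normalized counts are counts scaled to a common library size. With LPS+MSU it was at 1297 and 1173 against 563 and 526. In the edgeR fit the log2 fold changes of Ncoa6-KO over Ncoa6-sufficient cells were -1.05 (SE 0.117, adjusted p = 0.00236) and -1.18 (SE 0.124, adjusted p = 0.00189), so counts of the gene were lower but not lost. These counts cover the whole gene, including exons outside the loxP sites. They cannot show how much intact transcript remained. Lyz2, whose locus holds the Cre, was also lower in Ncoa6-KO cells, with log2 fold changes of -1.01 and -0.95 (adjusted p = 0.0172 and 0.0142). Marker levels are given in CPM, which here are counts scaled to the effective size of a library. That size is the total of the library multiplied by its TMM factor, given below. The summed level of 8 macrophage markers, Lyz2 among them, lay between 9070 and 19000 CPM, and none of the 8 was at 0. It was lower in each Ncoa6-KO library than in each Ncoa6-sufficient one, at 9070 to 10400 against 13800 to 16000 CPM in medium and at 12600 to 13400 against 17000 to 19000 with LPS+MSU. Lyz2 made up most of this gap. Its mean normalized counts were 119774 in Ncoa6-KO against 240995 in Ncoa6-sufficient cells in medium, and 126325 against 243832 with LPS+MSU. The means of the other markers were lower as well, by smaller amounts. Besides Lyz2, Cd14 was called lower in medium (log2 -0.78, adjusted p = 0.0298) and Itgam with LPS+MSU (log2 -0.51, adjusted p = 0.0412). Of 6 markers of fat cells, which also make fatty acids, Adipoq and Lep were at 0 in every library and the sum reached 0.0891 CPM at most.

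The Ncoa6-KO libraries stood apart from each other. In medium, 25 of the 31 genes were higher in Ncoa6-KO replicate 1 than in replicate 2, whereas 51.8% of all genes tested were. With LPS+MSU, 25 of 31 were again higher in replicate 1, beside 47.2% of all genes, and 20 of the 31 were so in both conditions, beside 28.7% of all genes. In the Ncoa6-sufficient groups 17 of 31 were higher in replicate 1 in medium, beside 51% of all genes, and 13 with LPS+MSU, beside 50.8%. The same Ncoa6-KO libraries also differed in markers of stromal cells. The summed level of the 6 stromal genes (Col1a1, Col1a2, Col3a1, Dcn, Lum and Pdgfra) was 4.48 CPM in replicate 1 and 15.2 in replicate 2 in medium, and 7.35 and 24.2 with LPS+MSU. Col1a1 and Col1a2 made up most of this sum. In medium 5 of the 6 genes were lower in replicate 1 and 0 higher. With LPS+MSU 4 were lower and 2 higher, namely Dcn (39.2 against 19.6 normalized counts) and Lum (13.1 against 9.79). In the Ncoa6-sufficient libraries the sum lay between 12.7 and 14.3 in medium and between 26.4 and 28.5 with LPS+MSU, close to Ncoa6-KO replicate 2. At most 1 of the 6 genes was at 0 in any library. The summed level of 6 endothelial markers, of which Cldn5 and Emcn were at 0 in every library, was also lower in Ncoa6-KO cells, at 12.8 to 13.2 against 18.4 to 24.3 CPM in medium and, with LPS+MSU, at 183 in replicate 1 and 103 in replicate 2 against 218 and 232. Kdr held most of this sum. Its mean normalized counts in medium and with LPS+MSU were 586 and 6446 in Ncoa6-sufficient cells and 355 and 4123 in Ncoa6-KO cells. Cdh5 was also lower in Ncoa6-KO cells (10.5 against 24.1 and 62.2 against 131). Egfl7 was not (14.7 against 13.2 and 14.2 against 13.8), nor was Tek with LPS+MSU (3.5 against 0.693). The part of the macrophage, stromal and endothelial markers in the results was not tested, and in bulk RNA fewer cells of a type cannot be told apart from less RNA per cell. Calls and counts between the genotypes are therefore also given without single libraries.

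**Figure D1:**
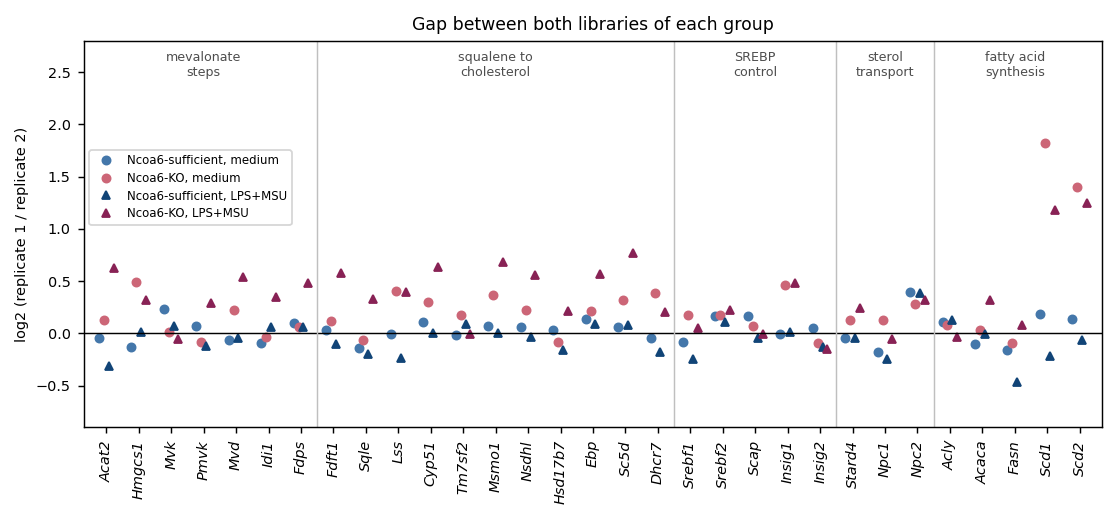
The log2 ratio of normalized counts in replicate 1 to replicate 2 (vertical axis) is plotted for each of the 31 genes (horizontal axis, ordered by role) in the 4 groups; the line at 0 marks equal libraries. Points of the Ncoa6-KO groups lie above 0 for 25 of 31 genes in each condition and reach 1.82 for Scd1 in medium.

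All 31 genes passed the filter on low counts. Levels are compared between genes only per kilobase of exon, as mean normalized counts of 2 libraries. In Ncoa6-sufficient cells in medium, Npc2, a lysosomal protein that hands cholesterol to the membrane protein Npc1, was the highest at 5210 per kb, and Npc1 and the sterol sensor Insig1 followed at 1240 and 1020 per kb. Hmgcs1, which makes the precursor of mevalonate, stood at 591 per kb, and Idi1, the isomerase of isopentenyl diphosphate, at 439. Srebf2 was at 671 per kb and Srebf1 at 451. Among the enzymes from squalene to cholesterol, levels were highest for Msmo1 and Ebp, both at 640 per kb. They were lowest for Tm7sf2, a sterol reductase, and Hsd17b7, a sterol ketone reductase, at 56.4 and 83.1 per kb. Scd1 was the lowest of all at 4.89 per kb, and its homolog Scd2 was at 423, so the desaturase transcript of these cells was mainly that of Scd2. The pathway was thus transcribed throughout, with the fatty acid desaturase Scd1 near the bottom of what could be measured (7 to 76 counts a library).

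**Figure D2:**
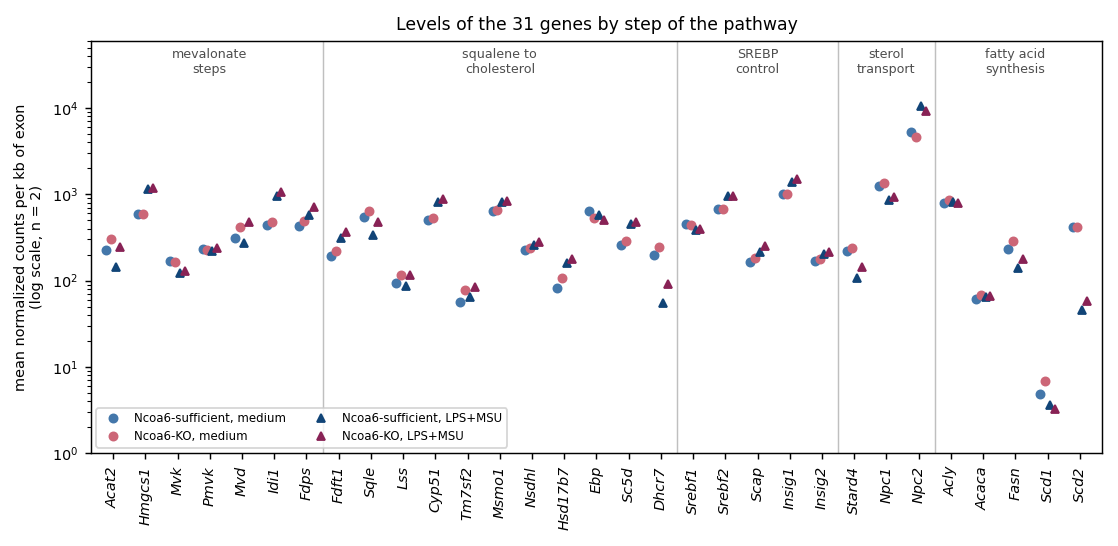
Mean normalized counts per kilobase of exon (vertical axis, log scale, n = 2 libraries) of the 31 genes in the 4 groups, ordered by role. In Ncoa6-sufficient cells in medium the levels run from 4.89 for Scd1 to 5210 for Npc2, and Scd2 moves from 423 to 46.1 with LPS+MSU.

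The stretches of DNA in front of these genes share a feature that the list did not use. RefSeq promoter sequences of GRCm38.p6, which cover 250 bases before a transcription start and 50 after it, were matched for 24 of the 31 genes. Sequences were not at hand for Sqle, Npc1, Fdps, Scd1, Scd2, Fdft1 and Stard4. The letters CCAAT, the core of the NF-Y box, stood on either strand in 21 of the 24 (87.5%), beside 41.06% of the 27025 genes with a promoter sequence and 42.53% of the 11590 of these that were tested here. The letters GGGCGG, the Sp1 box, also stood in 21 of 24 (87.5%), beside 38.2% of all these genes and 64.48% of those tested. A sterol response element, searched as TCACNCCAC on either strand, stood in 1 of 24 (4.17%), Hmgcs1, beside 1.44% of all genes, and the LXR element, searched as a direct repeat of AGGTCA with a spacer of 4 bases, stood in 0 of 24, beside 0.01%. Genes with several listed starts had several windows and counted once, and a match of letters is not a bound site. The 250 bases before the start are shown for 3 genes that rose with LPS+MSU (Hmgcs1, Idi1 and Hsd17b7) and for the 2 that were higher in Ncoa6-KO cells under it (Mvd and Dhcr7, for which the last of 3 listed starts is shown), 5′ to 3′ on the strand of the gene, with CCAAT or its complement ATTGG and, in Hmgcs1, the sterol response element in capitals.
Hmgcs1, chr13:119690101-119690350, plus strand: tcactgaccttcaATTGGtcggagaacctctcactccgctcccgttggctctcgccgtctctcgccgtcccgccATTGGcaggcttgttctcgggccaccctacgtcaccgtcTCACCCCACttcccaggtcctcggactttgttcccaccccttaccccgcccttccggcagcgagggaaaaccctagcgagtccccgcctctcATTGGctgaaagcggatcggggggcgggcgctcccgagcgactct
Idi1, chr13:8885356-8885605, plus strand: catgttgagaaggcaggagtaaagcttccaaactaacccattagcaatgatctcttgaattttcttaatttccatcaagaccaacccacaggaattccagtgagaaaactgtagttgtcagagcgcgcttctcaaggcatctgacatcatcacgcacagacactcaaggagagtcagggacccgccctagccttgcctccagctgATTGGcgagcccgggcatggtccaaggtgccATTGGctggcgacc
Hsd17b7, chr1:169969206-169969455, minus strand: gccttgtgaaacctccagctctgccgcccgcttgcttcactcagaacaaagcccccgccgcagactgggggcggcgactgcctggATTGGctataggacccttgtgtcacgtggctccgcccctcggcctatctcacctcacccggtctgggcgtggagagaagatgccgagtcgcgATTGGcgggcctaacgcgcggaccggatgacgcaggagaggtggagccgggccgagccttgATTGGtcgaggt
Mvd, chr8:122443423-122443672, minus strand: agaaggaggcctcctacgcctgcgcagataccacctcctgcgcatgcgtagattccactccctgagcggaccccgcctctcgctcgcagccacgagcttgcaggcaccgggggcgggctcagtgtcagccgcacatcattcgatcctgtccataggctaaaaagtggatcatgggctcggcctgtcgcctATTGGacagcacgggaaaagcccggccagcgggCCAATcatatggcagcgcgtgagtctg
Dhcr7, chr7:143829964-143830213, plus strand: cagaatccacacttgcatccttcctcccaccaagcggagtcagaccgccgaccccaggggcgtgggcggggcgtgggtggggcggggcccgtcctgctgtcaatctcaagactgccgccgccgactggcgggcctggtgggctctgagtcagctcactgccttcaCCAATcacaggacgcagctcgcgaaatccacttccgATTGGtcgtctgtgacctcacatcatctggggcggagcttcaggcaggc
In Hmgcs1 the sterol response element began at position -137 from the start and did not overlap a CCAAT box. Each of the 5 windows shown held at least 2 CCAAT boxes, among genes that rose with LPS+MSU as well as in Dhcr7, which fell. The windows at the other 2 listed starts of Dhcr7, which are not shown, held 0. These windows lie at or just before the start of Hmgcs1 (chromosome 13, 119690379 to 119708260), Idi1 (chromosome 13, 8885501 to 8892451), Hsd17b7 (chromosome 1, 169949535 to 169969241) and Mvd (chromosome 8, 122433601 to 122443422), and inside Dhcr7 (chromosome 7, 143823145 to 143848410), as the GRCm38 annotation places them.

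LPS+MSU split the list instead of moving it one way. In Ncoa6-sufficient cells 11 of the 31 genes rose and 8 fell, at an adjusted p under 0.05 in edgeR, and 12 did not pass. That is 61.3% called, beside 55.2% of all 17625 genes tested (24.7% higher and 30.5% lower). The median log2 fold change of the 31 was 0.07, beside -0.12 over all genes. In Ncoa6-KO cells 12 rose and 7 fell, again 61.3%, beside 53.1% of all genes (25.2% higher and 27.9% lower), with a median of 0.12 beside -0.07. In each genotype 17 of the 31 were above 0, beside 45.6% of all genes in Ncoa6-sufficient cells and 47% in Ncoa6-KO cells, and an unadjusted p was under 0.05 for 21 and 19, beside 59.8% and 58% of all genes. The LPS+MSU libraries did not overlap those in medium for 16 higher and 13 lower genes in Ncoa6-sufficient cells, beside 35.1% and 43.5% of all genes, and for 13 and 9 in Ncoa6-KO cells, beside 35.4% and 41.1%. Of the 20 genes called in at least 1 genotype, 18 were called in both, all in the same direction, while Acat2 was called in Ncoa6-sufficient cells and Insig2 in Ncoa6-KO cells. A share of calls so near that of all genes is not a result about the list.

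The direction of the smaller rises depended on how the libraries were scaled. The main scaling (TMM) set factors of 0.766 to 0.829 for the LPS+MSU libraries and 1.23 to 1.29 for those in medium, and with total counts alone the median of all genes moved from -0.12 to -0.78 in Ncoa6-sufficient cells and from -0.07 to -0.71 in Ncoa6-KO cells. With total counts 1 of the 31 genes was called higher and 19 lower in each genotype. In each genotype 10 genes went from above 0 to below 0. Fdps, Insig1, Insig2, Msmo1, Nsdhl, Scap, Srebf2 and Tm7sf2 did so in both, Acaca and Acly in Ncoa6-sufficient cells and Mvd and Pmvk in Ncoa6-KO cells. DESeq2's size factors moved the median of all genes to 0.00 and -0.02, with 13 rises and 8 falls, and 12 and 6. Relative to the median of all genes, 18 of the 31 were above it in Ncoa6-sufficient cells and 19 in Ncoa6-KO cells under each of these 3 scalings, and the median of the list stood 0.18 to 0.19 above it.

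**Figure D3:**
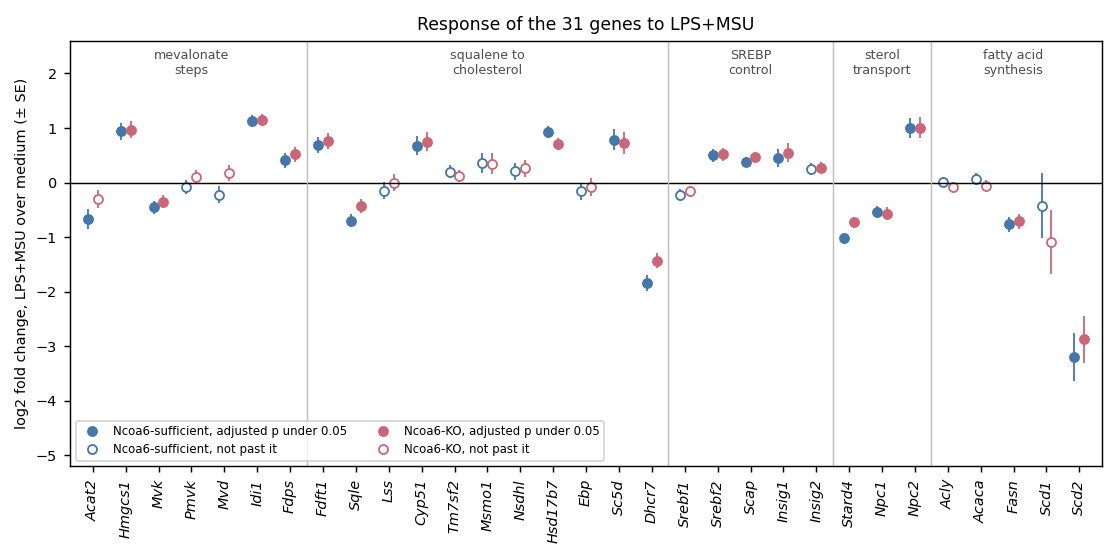
The log2 fold change of LPS+MSU over medium with its SE (vertical axis) is shown for each of the 31 genes, ordered by role, in Ncoa6-sufficient (blue) and Ncoa6-KO (red) cells, with filled points where the adjusted p is under 0.05. Scd2 (-3.20 and -2.87) and Dhcr7 (-1.84 and -1.43) fall the most and Idi1 (1.13 and 1.15) rises the most; with total counts as scaling 10 genes in each genotype go from above 0 to below 0, among them the called rises of Scap, Srebf2, Insig1 and Fdps.

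Among the 7 genes of the mevalonate steps, 3 rose (Hmgcs1, Idi1 and Fdps, the farnesyl diphosphate synthase) and 2 fell (Acat2 and Mvk, the mevalonate kinase) in Ncoa6-sufficient cells. Over all genes 24.7% were called higher and 30.5% lower there. Idi1 moved from 1491 and 1589 normalized counts in medium to 3447 and 3305 with LPS+MSU in Ncoa6-sufficient cells, and from 1652 and 1692 to 4149 and 3260 in Ncoa6-KO cells. The libraries with LPS+MSU did not overlap those in medium, and Idi1 rose 2.19-fold (log2 1.13, SE 0.115, adjusted p = 6.71e-06) and 2.22-fold (log2 1.15, SE 0.114, adjusted p = 6.46e-06). It was the rise that stayed called with total counts as scaling. Hmgcs1 rose by 0.94 and 0.97 (log2) in the 2 genotypes and Fdps by 0.41 and 0.52. Acat2, a cytosolic thiolase that joins the acetyl-CoA units at the head of the pathway, went the other way: it stood at 570 and 589 in medium and at 328 and 406 with LPS+MSU in Ncoa6-sufficient cells. In Ncoa6-KO cells it stood at 796 and 728 in medium and at 751 and 487 with LPS+MSU, so that these groups overlapped. Its log2 fold changes were -0.66 (SE 0.181, adjusted p = 0.00917) and -0.30 (SE 0.173, adjusted p = 0.172). Without Ncoa6-KO replicate 1 of LPS+MSU the latter was -0.65 (adjusted p = 0.00602). Pmvk and Mvd, the kinase and decarboxylase that follow Mvk, were not called in either genotype. Acat2 (4872 counts over the 8 libraries) has near copies of part of its sequence in other genes. It matches Tcp1 (38281 counts) at 98.7% identity over 445 bases and Acat3 (71 counts) at 97.7% over 1477. Whether reads were shared between these genes was not tested.

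Of the 11 enzymes from squalene to cholesterol, 4 rose and 2 fell in each genotype, and they were the same 6 genes. That is 54.5% called, beside 55.2% of all genes in Ncoa6-sufficient cells and 53.1% in Ncoa6-KO cells. Fdft1 (squalene synthase), Cyp51 (lanosterol demethylase), Hsd17b7 and Sc5d (a sterol desaturase) rose, with log2 fold changes of 0.68 to 0.93 in Ncoa6-sufficient cells. With total counts as scaling none of these 4 rises was called in either genotype (log2 0.01 to 0.26 in Ncoa6-sufficient cells). Hsd17b7 went from 429 and 420 normalized counts to 765 and 857 in Ncoa6-sufficient cells and from 535 and 566 to 962 and 832 in Ncoa6-KO cells. Both genotypes were higher with LPS+MSU in every library, by 0.93 (SE 0.109, adjusted p = 2.21e-05) and 0.71 (SE 0.107, adjusted p = 0.000189). Sqle, the squalene epoxidase, fell by 0.70 and 0.43 on the log2 scale. Dhcr7, the reductase of the last step to cholesterol, fell the most of all these enzymes, from 1133 and 1168 to 302 and 342 in Ncoa6-sufficient cells and from 1617 and 1234 to 566 and 490 in Ncoa6-KO cells. The levels with LPS+MSU were far below those in medium in both genotypes, with log2 fold changes of -1.84 (SE 0.143, adjusted p = 7.87e-07) and -1.43 (SE 0.137, adjusted p = 4.53e-06). Lss, Tm7sf2, Msmo1, Nsdhl and Ebp were not called, with log2 fold changes between -0.16 and 0.36 in Ncoa6-sufficient cells. Steps called higher thus lay next to steps called lower along this branch. Fdft1 overlaps Ctsb, a far more abundant gene (4180429 against 8705 counts over the 8 libraries), by 774 exon bases on the opposite strand, and Tm7sf2 shares 532 exon bases with Vps51 on the same strand.

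Of the SREBP genes, Srebf2 was called higher with LPS+MSU and Srebf1 was not called. Srebf2, which mainly drives cholesterol genes, stood at 5106 and 4539 normalized counts in medium and at 7100 and 6576 with LPS+MSU in Ncoa6-sufficient cells, and at 5108 and 4510 against 7432 and 6346 in Ncoa6-KO cells. It rose 1.42-fold (log2 0.50, SE 0.116, adjusted p = 0.00315) and 1.43-fold (log2 0.52, SE 0.116, adjusted p = 0.00279), though with total counts as scaling its log2 fold changes were -0.17 and -0.12. Srebf1, which mainly drives fatty acid genes, did not pass the test. It was at 2464 and 2613 in medium and at 1976 and 2343 with LPS+MSU in Ncoa6-sufficient cells, and at 2654 and 2353 against 2280 and 2202 in Ncoa6-KO cells. The LPS+MSU libraries lay below those in medium in both genotypes, by -0.23 (SE 0.106, adjusted p = 0.0834) and -0.16 (SE 0.106, adjusted p = 0.228) on the log2 scale. Insig1, which retains Scap and is itself switched on by SREBPs, stood at 3139 and 3144 in medium and at 4324 and 4276 with LPS+MSU in Ncoa6-sufficient cells. In Ncoa6-KO cells it was at 3647 and 2646 in medium and at 5367 and 3831 with LPS+MSU. No LPS+MSU library overlapped those in medium, and the rises were 0.45 (SE 0.167, adjusted p = 0.0386) and 0.55 (SE 0.167, adjusted p = 0.0168). Scap rose by 0.38 and 0.47. The signs of Srebf2, Insig1 and Scap were the other way with total counts as scaling.

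All 3 genes of sterol transport were called in both genotypes, 1 higher and 2 lower, beside 55.2% and 53.1% of all genes called. Npc2 stood at 32147 and 24512 normalized counts in medium and at 64298 and 49269 with LPS+MSU in Ncoa6-sufficient cells, and at 27643 and 22828 against 56270 and 45121 in Ncoa6-KO cells. The rise was 2.00-fold (log2 1.00, SE 0.183, adjusted p = 0.00068) and 2.01-fold (log2 1.01, SE 0.184, adjusted p = 0.000716). Stard4, a soluble carrier that brings cholesterol to the endoplasmic reticulum, went from 1208 and 1245 to 596 and 616 in Ncoa6-sufficient cells and from 1404 and 1282 to 880 and 743 in Ncoa6-KO cells. These groups did not overlap either, and the log2 fold changes were -1.02 (SE 0.105, adjusted p = 7.9e-06) and -0.73 (SE 0.103, adjusted p = 0.000108). Npc1, the partner of Npc2, fell by 0.54 and 0.57 on the log2 scale, so the genes of this pair changed in opposite directions.

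Of the 5 genes of fatty acid synthesis none was called higher and 2 were called lower in each genotype. Over all genes 24.7% and 25.2% were called higher and 30.5% and 27.9% lower. Scd2 showed the largest change of the 31 genes, from 2416 and 2203 normalized counts to 247 and 258 in Ncoa6-sufficient cells and from 3347 and 1268 to 442 and 186 in Ncoa6-KO cells. It fell to 0.109 times its level in medium (log2 -3.20, SE 0.44, adjusted p = 8.04e-05) and to 0.136 times (log2 -2.87, SE 0.428, adjusted p = 0.000159), despite a gap of 2.64 times between the Ncoa6-KO libraries in medium. Fasn, the fatty acid synthase, fell by 0.76 and 0.71 on the log2 scale. Acly and Acaca, which supply its substrates, were not called, with log2 fold changes between -0.08 and 0.07. Scd1 was at 25.5 and 22.4 in medium and at 16.6 and 19.3 with LPS+MSU in Ncoa6-sufficient cells, and at 52.8 and 14.9 against 22.2 and 9.79 in Ncoa6-KO cells. At these counts an SE of 0.595 and 0.582 leaves a change of Scd1 undetectable short of several-fold, and Scd1 and Scd2 are 95.5% identical over 623 exon bases, so reads may be split between them.

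**Figure D4:**
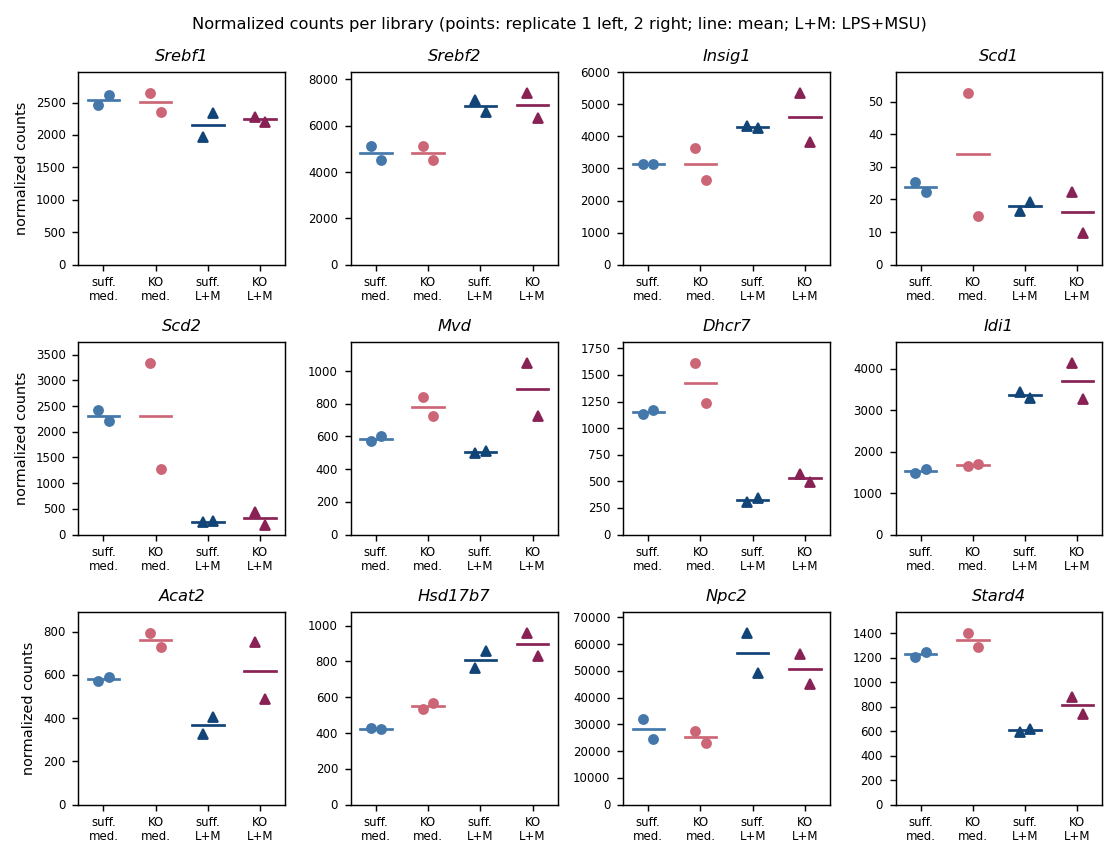
Normalized counts (vertical axes, from 0) of 12 of the 31 genes in each of the 8 libraries, with replicate 1 to the left of replicate 2 and a line at the mean of each group (suff., Ncoa6-sufficient; med., medium; L+M, LPS+MSU). Dhcr7, Stard4 and Scd2 are lower with LPS+MSU in both genotypes, Idi1, Hsd17b7 and Npc2 are higher, and Mvd and Dhcr7 are higher in both Ncoa6-KO libraries than in both Ncoa6-sufficient ones with LPS+MSU.

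Some of these calls rested on single libraries. In Ncoa6-sufficient cells the rise of Insig1 was no longer called without any of the 4 Ncoa6-sufficient libraries (log2 0.45 to 0.51, adjusted p = 0.0717 to 0.125). The fall of Acat2 was lost without LPS+MSU replicate 1 (log2 -0.47, adjusted p = 0.114), and the rise of Cyp51 without medium replicate 2 (log2 0.63, adjusted p = 0.0502). Fdps lost its call without LPS+MSU replicate 1 (adjusted p = 0.0717), medium replicate 1 (0.059) or medium replicate 2 (0.123), at log2 fold changes of 0.42, 0.46 and 0.36, and Mvk without LPS+MSU replicate 2 (-0.37, adjusted p = 0.0677) or medium replicate 1 (-0.33, adjusted p = 0.0765). In Ncoa6-KO cells Insig1 and Sc5d lost theirs without LPS+MSU replicate 1 (log2 0.28 and 0.29, adjusted p = 0.198 and 0.11) or medium replicate 2 (0.34 and 0.59, adjusted p = 0.119 and 0.0592), Fdps without LPS+MSU replicate 1 (0.25, adjusted p = 0.0848) and Sqle without LPS+MSU replicate 2 (-0.27, adjusted p = 0.109). Mvk there lost it without any of the 4 Ncoa6-KO libraries (adjusted p = 0.063 to 0.109). Insig2 lost it without any of those 4 (adjusted p = 0.0529 to 0.215) and without either Ncoa6-sufficient library in medium (0.0612 and 0.061). The other calls with LPS+MSU held without each library in turn. Some genes were called when a library was left out. In Ncoa6-KO cells these were Ebp without LPS+MSU replicate 1 (log2 -0.40, adjusted p = 0.0301), Mvd, Nsdhl and Msmo1 without LPS+MSU replicate 2 (0.43, 0.52 and 0.66, adjusted p = 0.0177, 0.00664 and 0.00437) and Scd1 without medium replicate 2 (-1.70, adjusted p = 0.011). In Ncoa6-sufficient cells these were Insig2 without LPS+MSU replicate 1 (0.36, adjusted p = 0.0349) and Insig2 and Msmo1 without either Ncoa6-KO library with LPS+MSU (0.30 and 0.41, the highest adjusted p being 0.034 and 0.0167).

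In medium none of the 31 genes passed the test between the genotypes. The edgeR fit called 0 of 31, beside 1.88% of all genes (0.573% higher and 1.3% lower), with 6 of 31 at an unadjusted p under 0.05, all higher in Ncoa6-KO cells, beside 4.97% of all genes that were so and higher. DESeq2 and limma-voom also called 0. The median log2 fold change was 0.13, beside -0.03 over all genes, and 25 of the 31 (80.6%) were above 0, beside 43.6% of all genes. The Ncoa6-KO libraries lay above both Ncoa6-sufficient ones for 15 of the 31, beside 18.6% of all genes, and below both for 1, Ebp, beside 24.5%. The fold changes lay between -0.26 (Ebp, the sterol isomerase) and 0.52 (Scd1). The lowest adjusted p was that of Tm7sf2 (log2 0.47, SE 0.116, adjusted p = 0.0745). Without Ncoa6-KO replicate 1 of medium 17 of the 31 (54.8%) were above 0, beside 43.9% of all genes. The median of the list was then 0.07, beside -0.03 over all genes.

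With LPS+MSU 2 of the 31 genes, Mvd and Dhcr7, were higher in Ncoa6-KO cells and none was lower. That is 6.45%, beside 3.59% of all genes (1.96% higher and 1.63% lower). The median was 0.13, beside 0.00 over all genes, 27 of 31 (87.1%) were above 0, beside 50.1%, and 10 had an unadjusted p under 0.05, all of them higher, beside 9.21% of all genes. The groups did not overlap for 11 genes, all higher in Ncoa6-KO cells, beside 24.7% of all genes that were higher and 22.7% that were lower. Mvd, which decarboxylates the diphosphate of mevalonate, was at 496 and 511 normalized counts in Ncoa6-sufficient cells and at 1052 and 726 in Ncoa6-KO cells with LPS+MSU. In medium it was at 573 and 600 against 843 and 724. Every Ncoa6-KO library was above every Ncoa6-sufficient one in both conditions, with log2 fold changes of 0.82 (SE 0.159, adjusted p = 0.0206, 1.77-fold) with LPS+MSU and 0.42 (SE 0.151, adjusted p = 0.243) in medium. Dhcr7 was at 302 and 342 against 566 and 490 with LPS+MSU, and at 1133 and 1168 against 1617 and 1234 in medium. These groups did not overlap in either condition, and its log2 fold changes were 0.71 (SE 0.149, adjusted p = 0.028, 1.64-fold) and 0.31 (SE 0.129, adjusted p = 0.333). The genes next in line were Acat2 (log2 0.76, SE 0.184, adjusted p = 0.0505), Sqle (0.48, SE 0.123, adjusted p = 0.0593) and Stard4 (0.42, SE 0.108, adjusted p = 0.0605), which did not pass.

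The higher values with LPS+MSU lay mainly in Ncoa6-KO replicate 1. It lay above both Ncoa6-sufficient libraries for 26 of the 31 genes and below both for 0, whereas Ncoa6-KO replicate 2 lay above both for 13 and below both for 14. Over all genes, these shares were 35.3% above and 34.9% below for replicate 1, and 40.9% and 34.2% for replicate 2. Without Ncoa6-KO replicate 1, 15 of 31 genes (48.4%) were above 0, beside 49.0% of all genes, and the median was -0.01. Without Ncoa6-KO replicate 2 the median was 0.32, beside -0.01 over all genes, and 29 of 31 were above 0, beside 48.0% of all genes. Mvd and Dhcr7 stayed higher without replicate 1, by 0.51 and 0.59 on the log2 scale, but lost their calls (adjusted p = 0.0845 and 0.123). Mvd also lost it without either Ncoa6-sufficient library with LPS+MSU (log2 0.79 and 0.83, adjusted p = 0.17 and 0.0777). Dhcr7 lost it without those (log2 0.62 and 0.79, adjusted p = 0.229 and 0.0628), without Ncoa6-KO replicate 2 with LPS+MSU (0.81, adjusted p = 0.102) and without either Ncoa6-sufficient library in medium (0.71 both times, adjusted p = 0.0579 and 0.0564). The count of called genes was 0 without Ncoa6-KO replicate 1 or Ncoa6-sufficient replicate 1 of LPS+MSU, 1 without Ncoa6-sufficient replicate 2 of LPS+MSU or either Ncoa6-sufficient library in medium, and up to 3 without the others. With no filter on low counts 7 of the 31 were called, with DESeq2 4 and with limma-voom 1. Over all genes the calls were 1611 among 24645 with no filter, 849 among 17625 with DESeq2 and 441 with limma-voom, beside 632 in the edgeR fit. In medium, Ncoa6-KO replicate 1 lay above both Ncoa6-sufficient libraries for 27 of 31 genes and below both for 2. Over all genes these shares were 32.6% and 39.8%. Replicate 2 of medium lay above both for 15 (48.4%) and below both for 12 (38.7%), beside 33.4% and 39.7% of all genes. Acat2 was called without Ncoa6-KO replicate 2 of LPS+MSU (log2 1.03, adjusted p = 0.0325) or of medium (0.76, adjusted p = 0.0489), and Fasn without Ncoa6-sufficient replicate 2 of LPS+MSU (0.60, adjusted p = 0.0435). The summed stromal markers given above were lower in the replicates 1, and the summed macrophage and endothelial markers in both Ncoa6-KO libraries. Their part in these values was not tested.

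**Figure D5:**
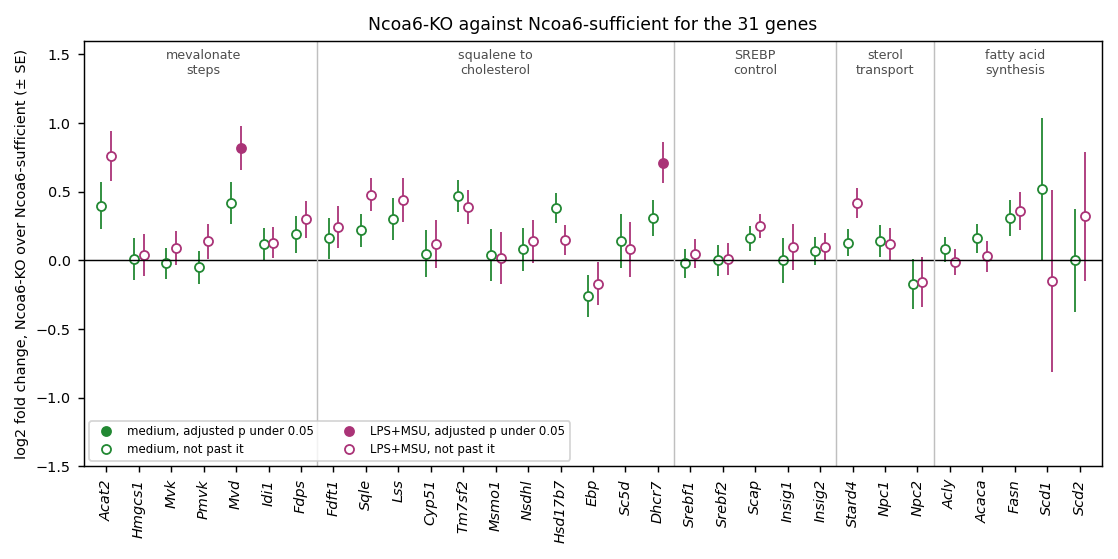
The log2 fold change of Ncoa6-KO over Ncoa6-sufficient cells with its SE (vertical axis) for each of the 31 genes, ordered by role, in medium (green) and with LPS+MSU (purple); filled points mark an adjusted p under 0.05. Mvd (0.82) and Dhcr7 (0.71) with LPS+MSU are filled, and the median is 0.13 in each condition, falling to -0.01 with LPS+MSU without Ncoa6-KO replicate 1.

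By role, the 18 enzymes of sterol synthesis had medians of 0.15 in medium and 0.14 with LPS+MSU, with 15 and 17 of 18 above 0. Without Ncoa6-KO replicate 1 of the condition the medians were 0.09 and -0.01, with 10 and 9 of 18 above 0, and without replicate 2 they were 0.22 and 0.39, with 15 and 18 above 0. The SREBP group had medians of 0.00 and 0.10 and the highest value was that of Scap (0.16 and 0.25, adjusted p = 0.525 and 0.184). Srebf1 (-0.02 and 0.05) and Srebf2 (0.00 and 0.01) were near 0, with SEs of 0.105 to 0.115, and no difference was detectable at this precision. Without replicate 1 the medians of this group were -0.10 and 0.01. The fatty acid genes had medians of 0.16 and 0.03, or 0.04 and -0.15 without replicate 1 and 0.27 and 0.30 without replicate 2, and Fasn was at 0.31 and 0.36 (adjusted p = 0.342 and 0.204). Scd2 was at 0.00 and 0.32 with SEs of 0.372 and 0.469, since its Ncoa6-KO libraries lay on either side of the Ncoa6-sufficient ones in both conditions.

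The response to LPS+MSU did not differ detectably between the genotypes for any of the 31 genes. The test of the difference itself (the interaction, Ncoa6-KO response minus Ncoa6-sufficient response) called 0 of 31, beside 0% of all genes, and no member had an unadjusted p under 0.05, beside 5.93% of all genes (4.11% with a larger value in Ncoa6-KO cells). The difference was above 0 for 23 of the 31, beside 58.6% of all genes. DESeq2 and limma-voom called 0 members as well, also with 0 at an unadjusted p under 0.05. The lowest p-values were those of Dhcr7 (log2 0.40, SE 0.197, unadjusted p = 0.0648, adjusted p = 0.853), Stard4 (0.29, SE 0.147, adjusted p = 0.863) and Mvd (0.40, SE 0.219, adjusted p = 0.883). Acat2 and Insig2, each called in 1 genotype alone, differed by 0.36 (SE 0.25, adjusted p = 0.919) and 0.02. The SEs were 0.127 to 0.279 for the genes other than Scd1 and Scd2, and a p that misses the threshold does not show equal responses. The median of the list was 0.07, beside 0.06 over all genes, and it was -0.16 without Ncoa6-KO replicate 1 of LPS+MSU and 0.24 without replicate 2.

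Other genes of the same pathways, 41 in all and all tested, were kept as a second list. With LPS+MSU 12 of them rose and 13 fell in Ncoa6-sufficient cells, and 13 rose and 13 fell in Ncoa6-KO cells. These are 29.3% and 31.7%, and 31.7% and 31.7%, beside the 24.7% and 30.5%, and 25.2% and 27.9%, of all genes. Of 16 further genes of fatty acid synthesis and activation, 4 rose and 8 fell in Ncoa6-sufficient cells (25% and 50%, beside 24.7% and 30.5% of all genes). Acsl1, an acyl-CoA synthetase, went from 1966 and 1887 normalized counts to 14259 and 14623 and Acsl3, another, from 843 and 841 to 163 and 153, so that related enzymes moved in opposite directions (log2 2.91 and -2.41, adjusted p = 7.96e-09 and 1.57e-06). Of 9 genes of the isoprenoid branches, Pdss1, which makes the tail of ubiquinone, rose by 1.92 and Fntb, a farnesyltransferase subunit, fell by 0.61. Of 7 genes that process SREBPs or degrade Insig and reductase proteins, Rnf139 rose by 2.03 and Tmem97 fell by 0.56. Of 9 genes of LXR signalling, oxysterols and sterol esters, Ch25h, which makes an oxysterol that blocks SREBP processing, rose the most, from 13.5 and 8.6 to 1797 and 1394 (log2 7.14, SE 0.222, adjusted p = 1.05e-09), while Soat1, which esterifies cholesterol, fell by 1.11.

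Between the genotypes 1 of the 41 was called in medium (2.44%, beside 1.88% of all genes) and 3 with LPS+MSU (7.32%, beside 3.59%), so that the calls are values of single genes and not a result about the list. Me1, the malic enzyme that supplies NADPH for fatty acid synthesis, was at 507 and 591 normalized counts in Ncoa6-sufficient cells and at 746 and 895 in Ncoa6-KO cells in medium, and at 486 and 534 against 822 and 953 with LPS+MSU. Every Ncoa6-KO library was above every Ncoa6-sufficient one, by 0.58 (SE 0.126, adjusted p = 0.0468) and 0.80 (SE 0.132, adjusted p = 0.0112). With LPS+MSU Me1 lost its call without Ncoa6-KO replicate 2 (0.68, adjusted p = 0.125) or Ncoa6-sufficient replicate 1 (0.72, adjusted p = 0.131). In medium it kept its call only without Ncoa6-KO replicate 1 of medium (0.71, adjusted p = 0.029) or of LPS+MSU (0.62, adjusted p = 0.0479), and without the other libraries its log2 fold change was 0.44 to 0.69 (adjusted p = 0.0505 to 0.48). Slc25a1, which exports citrate from mitochondria, was at 1797 and 1794 against 2362 and 2229 with LPS+MSU, a log2 fold change of 0.35 (SE 0.0853, adjusted p = 0.0485). It lost its call without any of these 4 libraries (0.29 to 0.39, adjusted p = 0.163 to 0.276) or either Ncoa6-sufficient library in medium (adjusted p = 0.0861 and 0.0863). Ch25h was lower in Ncoa6-KO cells with LPS+MSU, at 1797 and 1394 against 1022 and 1019 (log2 -0.64, SE 0.14, adjusted p = 0.0331). It lost its call without either Ncoa6-KO library with LPS+MSU (-0.66 and -0.65, adjusted p = 0.108 and 0.213), Ncoa6-sufficient replicate 1 of LPS+MSU (-0.46, adjusted p = 0.268) or either Ncoa6-sufficient library in medium (-0.64 both times, adjusted p = 0.0567 and 0.0558). Unlike most of the 31 genes, Me1 was higher in replicate 2 of the Ncoa6-KO libraries in both conditions.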

How the data were processed

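Stranded mRNA libraries of 8 BMDM cultures were sequenced. Per the labels and the methods, the authors aligned reads with STAR 2.7.3a to GRCm38 (Ensembl annotation) and estimated gene counts with RSEM 1.3.3; the authors deposited these expected counts of 50615 genes without normalization. They were rounded here, and the 17625 genes that summed to at least 10 across libraries were tested. edgeR 4.0.16 in R 4.3.3 (TMM, quasi-likelihood fit of the 4 groups) was used for the comparisons, with a Benjamini-Hochberg adjusted p under 0.05 as a call, over all genes tested. With 2 libraries against 2, an exact permutation p cannot go below 0.333, so p-values come from the fit across genes. Normalized counts are counts scaled to an effective library size of 29332189. Counting error at 25281955 to 33673552 counts per library limits mainly Scd1.

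The script was tested on simulated data. DESeq2 1.42.0, limma 3.58.1 (voom), DESeq2 size factors, other filters, replicate blocks, only the 4 libraries compared and leaving out each library were tried; scaling by total counts was added after the data were seen. Exon lengths, overlaps and near copies (95% identity over 200 bases) came from GENCODE's GRCm38 annotation, and promoters from RefSeq (GRCm38.p6).

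Genes named with every library's value were Srebf1, Srebf2, Insig1, Scd1, Scd2, members called between the genotypes, and in each role group the largest called rise and fall with LPS+MSU in Ncoa6-sufficient cells at a mean of at least 50 normalized counts. Further pathway genes were named where called between the genotypes, or as the largest called rise and fall of their group. The members and lists were chosen with earlier results of these data known. Marker lists of 9 cell types were summed per library. The lists of neutrophil, dendritic, B, T and NK and osteoclast markers reached 23.7, 8.45, 1.71, 3.76 and 79.7 CPM at most; those of macrophages, stromal, endothelial and fat cells are given with the results.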

Additional observations from a re-analysis of the deposited data

How the results depend on the processing

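The count of the 31 genes called with LPS+MSU between the genotypes was 2 in the edgeR fit, 4 with DESeq2, 7 with no filter on low counts, 6 with a replicate block across all groups, 5 with total counts as scaling, an alternative chosen after seeing the data, 1 with limma-voom and 1 when the 4 libraries compared were fitted alone; all these calls were higher in Ncoa6-KO cells. Over all genes, that comparison gave 632 calls among 17625 genes in the edgeR fit, 849 with DESeq2 and 1611 among 24645 with no filter. It gave 1532 with the block across all groups, 698 with total counts, 441 with limma-voom and 347 among 15404 with the 4 libraries alone. The count of the 31 in medium was 0, but 3 with no filter and 1 (Tm7sf2) with the replicate block. Leaving out each library gave counts of 0 to 3 and medians of -0.01 to 0.32 with LPS+MSU, 0 and 0.07 to 0.20 in medium, 16 to 21 and 0.06 to 0.12 for the response of Ncoa6-sufficient cells, 16 to 19 and -0.05 to 0.22 for that of Ncoa6-KO cells, and 0 and -0.16 to 0.24 for the interaction. With total counts as scaling the medians of the responses were -0.60 and -0.51, with 1 rise and 19 falls in each genotype in place of 11 and 8, and 12 and 7. Of the 10 genes in each genotype that turned negative under it, those called in the edgeR fit were, in Ncoa6-sufficient and Ncoa6-KO cells, -0.17 and -0.12 (Srebf2), -0.29 and -0.17 (Scap), -0.22 and -0.09 (Insig1), -0.26 and -0.12 (Fdps), and in Ncoa6-KO cells -0.36 (Insig2); its construction, without TMM factors, accounts for these. The cause of the other moves was not tested. Of the 40 calls of single genes in the 5 comparisons, 13 kept their direction and their side of the threshold under every alternative.

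Replicate numbers are shared by all groups. Neither labels nor methods say whether a number marks a mouse, and deviations of same-numbered libraries from their group means correlated at 0.283 and 0.353 between the conditions of a genotype and at 0.0418 to 0.193 across genotypes, so the numbers were not taken as pairs. A replicate block within genotype gave 22 and 23 called genes for the responses and 0 for the interaction, with 6 at an unadjusted p under 0.05. It added calls of Srebf1 (log2 -0.24, adjusted p = 0.00927), Msmo1 (0.36, 0.000195) and Insig2 (0.25, 0.0201) in Ncoa6-sufficient cells and of Acat2 (-0.31, 0.011), Msmo1 (0.32, 0.000743), Nsdhl (0.25, 0.0216) and Scd1 (-1.04, 0.0306) in Ncoa6-KO cells, so these depend on whether libraries were paired. Over all genes, the 331 calls between the genotypes in medium became 506 with DESeq2, 1152 with no filter and 1023 with the block across all groups, and the 632 with LPS+MSU became 1611 with no filter, 1532 with that block and 347 with the 4 libraries alone; the interaction had 0 calls, 45 with DESeq2, 269 with no filter, and 86 and 444 with the blocks. Depth limited Scd1 alone among the 31 genes, which held 7 to 76 counts a library.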
